A study of Mus musculus with 12 samples.

Results

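Polycomb repressive complex 1 (PRC1) is described here through 9 genes, Cbx2, Cbx6, Cbx7, Cbx8, Bmi1, Pcgf2, Pcgf6, Ring1 and Rnf2, chosen by symbol from the 23420 genes listed in each count file. All 9 were listed and all 9 passed the filter on low counts that left 14770 genes. RNA was sequenced from 12 mouse libraries of a mixed C57BL/6 and 129 background, 3 each of mouse embryonic fibroblasts (MEF), Stage1 cells at day 6 of reprogramming, Stage2 cells a further 4 days on, and established induced pluripotent stem cells (iPSC). Per the series text, every group but MEF was sorted for Oct4-GFP, a fluorescent reporter of the pluripotency gene Pou5f1, so the contrast with MEF carries both the sort and the cell state. The sources used here give neither the reprogramming factors and their delivery nor whether the 3 libraries of a group came from separate cultures or animals. P-values therefore measure the spread between these libraries, which may be technical.

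PRC1 places a single ubiquitin on histone H2A and compacts chromatin at developmental genes. Its catalytic core pairs one of the RING proteins, encoded by Ring1 and Rnf2, with one of the PCGF proteins. Canonical complexes hold Bmi1 (also called Pcgf4) or Pcgf2 together with a CBX protein, whose chromodomain reads trimethylated lysine 27 of histone H3, while variant complexes such as that of Pcgf6 hold RYBP or YAF2 in place of the CBX protein. In fibroblasts the complex is known for silencing the Cdkn2a locus, and in mouse embryonic stem cells for holding lineage genes silent.

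The stage named among the sample characteristics differed from the title in 12 of 12 libraries, and groups follow the titles. Summed over 10 fibroblast markers, levels lay between 34856 and 41725 TMM-scaled CPM (reads relative to the scaled library total) in the libraries titled MEF, whose characteristics name iPSC. They lay between 344 and 639 CPM at Stage1, 1205 and 1497 CPM at Stage2 and 573 and 627 CPM in iPSC. Fn1 made up most of these later sums, at means of 440 CPM at Stage1, 1185 at Stage2 and 533 in iPSC. The sum over 10 pluripotency markers was 4.52 to 5.62 CPM in MEF and 2366 to 4010 CPM in the other groups, so the markers set MEF apart. The names Stage1, Stage2 and iPSC rest on the titles alone. The 4 listed macrophage markers summed to 94.1 to 107 CPM in MEF and 7.41 to 29.1 CPM in the other groups. Lyz2 made up most of this sum in MEF, at a mean of 78.5 CPM. Cd68 averaged 8.16 CPM in MEF, 7.54 at Stage1, 25.0 at Stage2 and 10.8 in iPSC. Means of the other macrophage markers were lower in every later group than in MEF. The sum over 5 epithelial markers was 6.89 to 8.86 CPM in MEF and 547 to 769 CPM in the other groups. Gene totals ranged from 8916223 to 19011944 counts per library. Reads outside genes made up 9.21% ± 0.304 in MEF, 42.8% ± 4.11 at Stage1, 49.9% ± 3.16 at Stage2 and 38.8% ± 4.87 in iPSC (SD, n = 3), and the part of this shift in the results below was not tested. In such bulk RNA, fewer cells of a type and less RNA per cell cannot be told apart.

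The 9 genes lie on 6 mouse chromosomes of GRCm38 (mm10). Cbx2 (chr11:119022962-119031270, plus strand) and Cbx8 (chr11:119036305-119040969, minus) are neighbours. Cbx6 (chr15:79823896-79834688) and Cbx7 (chr15:79915807-79971119) lie within a span of 147 kb, both on the minus strand. Bmi1 lies at chr2:18677018-18686629 (plus), Pcgf2 at chr11:97688823-97700497, Pcgf6 at chr19:47033617-47050906, Ring1 at chr17:34020792-34024680 and Rnf2 at chr1:151458004-151500955, these 4 on the minus strand. RefSeq promoters of GRCm38.p6 matched 8 of the 9, all but Cbx2. Shown are the stretches before the start site of 2 genes whose RNA was higher in every later group than in MEF, and of 2 whose RNA was lower, each read 5′ to 3′ on the gene's own strand and without bases of any annotated exon. Capitals mark the E-box CACGTG and the GC box GGGCGG on either strand. The stretches are chr15:79932769-79932896 for Cbx7, chr19:47050907-47051156 for Pcgf6, chr2:18676768-18677017 for Bmi1 and chr11:119040970-119041163 for Cbx8. The Cbx7 stretch of 128 bases lies inside the gene span given above, since the RefSeq start used is an internal one. It stops short of that start, where exon bases were left out.
Cbx7: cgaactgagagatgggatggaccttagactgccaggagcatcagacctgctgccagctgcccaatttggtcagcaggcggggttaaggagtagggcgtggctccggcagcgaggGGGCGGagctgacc
Pcgf6: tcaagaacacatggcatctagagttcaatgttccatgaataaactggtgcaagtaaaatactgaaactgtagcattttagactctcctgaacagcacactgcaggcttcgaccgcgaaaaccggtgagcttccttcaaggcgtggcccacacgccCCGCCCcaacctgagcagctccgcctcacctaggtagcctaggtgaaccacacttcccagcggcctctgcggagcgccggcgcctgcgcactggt
Bmi1: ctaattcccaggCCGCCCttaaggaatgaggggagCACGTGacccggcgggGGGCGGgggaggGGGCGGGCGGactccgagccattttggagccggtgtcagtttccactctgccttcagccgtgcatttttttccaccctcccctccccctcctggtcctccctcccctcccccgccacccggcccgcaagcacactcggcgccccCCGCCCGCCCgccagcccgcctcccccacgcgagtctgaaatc
Cbx8: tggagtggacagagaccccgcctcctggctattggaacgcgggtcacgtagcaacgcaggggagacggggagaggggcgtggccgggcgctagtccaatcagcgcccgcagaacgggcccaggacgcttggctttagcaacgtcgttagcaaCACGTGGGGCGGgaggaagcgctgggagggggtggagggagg
In the 250 bases before the start, CACGTG was present in 4 of 8 promoters, those of Bmi1, Pcgf2, Cbx8 and Cbx6, against 6.02% of 32851 mouse promoters. The windows of Pcgf2 and Cbx6, like that of Cbx7, lie inside the gene spans given above. All bases of the Cbx6 window belong to annotated exons. GGGCGG was present in 8 of 8, against 32.7%, and the octamer ATGCAAAT in 0 of 8, against 1.6%. CG pairs numbered 5 in Pcgf2 to 30 in Ring1, with a median of 6 over all promoters. GC boxes of Bmi1 overlap one another, and in Cbx8 the E-box runs directly into a GC box. These matches describe the letters only.

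Between MEF and Stage1, genes of PRC1 changed in both directions. Of the 9 genes, 3 were higher at Stage1 and 3 were lower by the quasi-likelihood test of edgeR, at a Benjamini-Hochberg adjusted p below 0.05. Over all 14770 genes, 80.4% were called in this comparison, 44.2% higher and 36.1% lower, so 6 of 9 is no more than the background. Each family held genes that moved in opposite directions. Cbx7 rose and Cbx8 fell, Pcgf6 rose and Bmi1 fell, Rnf2 rose and Ring1 fell. Cbx2, Cbx6 and Pcgf2 were not called.

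**Figure D1:**
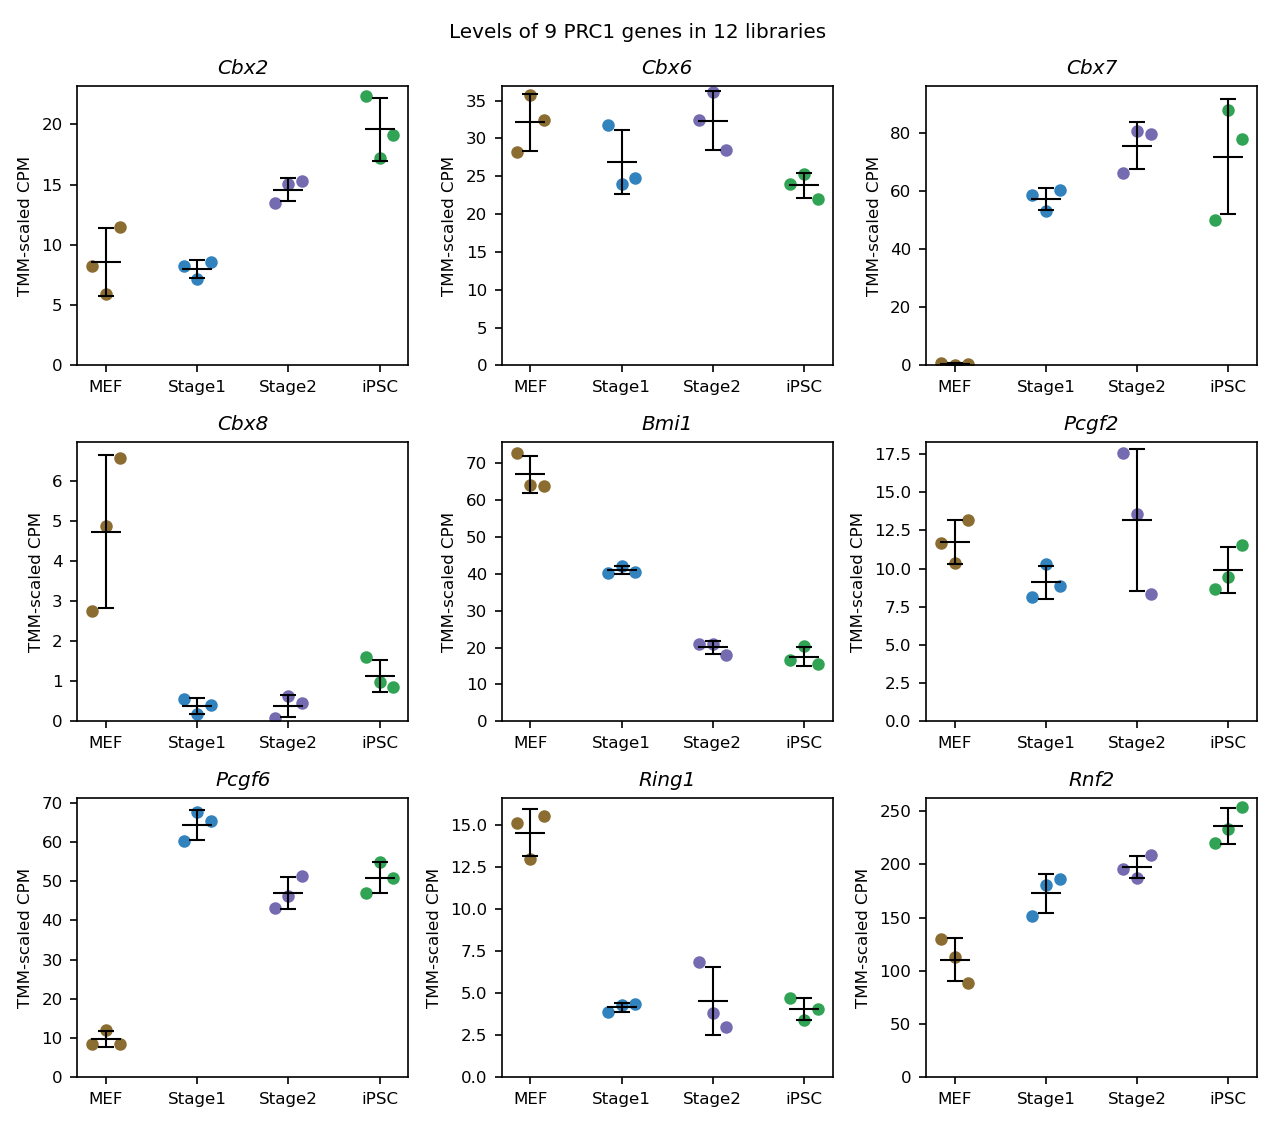
TMM-scaled CPM (vertical axes, linear, from 0) of the 9 PRC1 genes in MEF, Stage1, Stage2 and iPSC, with a point per library and bars for the mean ± SD of 3 libraries. Cbx7 lies at 0 to 0.752 CPM in MEF and at 50.0 CPM or more in all later libraries, and Bmi1 stands highest in MEF.

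The catalytic RING genes moved apart. Rnf2, which encodes RING1B, the main ubiquitin ligase of the complex in mouse embryonic stem cells, stood at 129.9, 113.2 and 89.1 TMM-scaled CPM in MEF, 151.7, 180.4 and 186.2 at Stage1, 195.9, 187.7 and 209.0 at Stage2 and 220.2, 233.2 and 254.1 in iPSC. The Stage1 libraries lay above all MEF libraries, and the iPSC libraries above all others. Rnf2 rose 1.56-fold at Stage1 over MEF (log2 fold change 0.64 ± 0.143 SE, adjusted p = 0.000514), and 2.13-fold in iPSC over MEF (1.09 ± 0.144, adjusted p = 1.76e-06). Ring1, the paralog encoding RING1A, stood at 15.2, 13.0 and 15.6 CPM in MEF, 3.87, 4.30 and 4.38 at Stage1, 6.84, 3.81 and 2.97 at Stage2 and 4.70, 3.40 and 4.08 in iPSC. All MEF libraries lay above all others, and the 3 later groups overlapped. Ring1 fell 3.48-fold at Stage1 against MEF (log2 -1.80 ± 0.293, adjusted p = 2.17e-05). Per kilobase of exon, Rnf2 made up 85.4% of the RING family's level in MEF, 97.0% at Stage1, 97.2% at Stage2 and 97.8% in iPSC. The summed RING level was 31.3 CPM per kilobase in MEF, 43.2 at Stage1, 49.3 at Stage2 and 58.4 in iPSC. The Rnf2 exons share 158 bases with Trmt1l on the other strand, and the sources do not say whether counting used strand. Reads set aside as ambiguous between genes entered no gene. They made up 0.466 to 0.750% per library of the reads in genes, outside genes and ambiguous together. The part of the shared bases in the Rnf2 counts was not tested. Trmt1l averaged 23.4, 23.6, 27.8 and 39.1 CPM over the same groups.

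The PCGF genes select the kind of complex. Bmi1, the canonical subunit known for repressing Cdkn2a, stood at 72.8, 64.0 and 63.9 CPM in MEF, 40.2, 42.2 and 40.6 at Stage1, 21.0, 20.9 and 18.1 at Stage2 and 16.6, 20.3 and 15.6 in iPSC. No library of MEF, Stage1 or Stage2 overlapped one of another of these groups, while Stage2 and iPSC overlapped. Bmi1 fell 1.63-fold at Stage1 against MEF (log2 -0.71 ± 0.148, adjusted p = 0.000294) and 2.05-fold at Stage2 against Stage1 (-1.03 ± 0.151, adjusted p = 4.44e-05). Pcgf6, subunit of the variant complex that holds Mga, L3mbtl2 and E2f6, had 8.39, 12.03 and 8.62 CPM in MEF, 60.1, 67.5 and 65.4 at Stage1, 43.2, 46.2 and 51.3 at Stage2 and 46.9, 54.9 and 50.8 in iPSC. Its level peaked at Stage1, whose libraries lay above all others. It rose 6.59-fold at Stage1 over MEF (2.72 ± 0.169, adjusted p = 8.00e-11).

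Pcgf2, also called Mel18 and the close relative of Bmi1 in canonical complexes, stood at 11.7, 10.4 and 13.2 CPM in MEF, 8.16, 10.3 and 8.84 at Stage1, 17.6, 13.5 and 8.34 at Stage2 and 8.65, 9.44 and 11.6 in iPSC. It was called in 0 of the 6 comparisons between groups by edgeR's quasi-likelihood test and in 0 by DESeq2, with 0 at an unadjusted p below 0.05, and its Stage2 libraries spanned the widest range of the 4 groups. Without Stage2 replicate 3 it was called higher at Stage2 than at Stage1 (log2 0.76, adjusted p = 0.0251). Per kilobase, Bmi1 held 41.7% of the summed level of the 6 PCGF genes in MEF, 26.6% at Stage1, 16.0% at Stage2 and 13.8% in iPSC. Pcgf6 held 4.81%, 33.0%, 29.8% and 31.6% of it in the same groups, and Pcgf3 32.7%, 19.5%, 21.5% and 22.1%. Without the length correction, Pcgf3 stood highest in every group, at 55.8% in MEF and 38.9% in iPSC. Bmi1 then held 29.8% in MEF and 10.1% in iPSC, and Pcgf6 4.38% in MEF and 29.3% in iPSC. The ratio of Bmi1 to Pcgf2 counts was 5.75 ± 0.796 in MEF, 4.54 ± 0.421 at Stage1, 1.64 ± 0.494 at Stage2 and 1.81 ± 0.412 in iPSC (SD, n = 3).

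The CBX genes, which supply the reader of histone methylation, held the 2 largest changes of the 9 at Stage1 against MEF. Cbx7, the main CBX protein of mouse embryonic stem cells, had 0.752, 0 and 0.482 CPM in MEF, from 6, 0 and 8 reads, 58.7, 53.2 and 60.4 at Stage1, 66.3, 80.9 and 79.7 at Stage2 and 50.0, 88.1 and 77.8 in iPSC. All later libraries lay far above all MEF libraries. Its Stage1 level was 156-fold that of MEF (log2 7.29 ± 0.396, adjusted p = 1.54e-11). With so few MEF reads the fold rests on a small denominator. The Cbx7 exons share 100 bases with Apobec3 on the other strand, which averaged 14.2 CPM in MEF, 78.8 at Stage1, 183 at Stage2 and 195 in iPSC.

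Cbx8 moved the other way, with 2.76, 4.88 and 6.57 CPM in MEF (22, 73 and 109 reads), 0.553, 0.179 and 0.421 at Stage1 (8, 2 and 5 reads), 0.0977, 0.635 and 0.453 at Stage2, and 1.60, 0.972 and 0.851 in iPSC. MEF lay above all other libraries, and the iPSC libraries lay between MEF and the rest. Cbx8 fell 11.9-fold at Stage1 against MEF (log2 -3.57 ± 0.567, adjusted p = 1.63e-05). The iPSC level remained 4.20-fold below MEF (log2 -2.07 ± 0.501, adjusted p = 0.00106).

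Cbx2, the neighbour of Cbx8 on chromosome 11, was not called between Stage1 and MEF (log2 -0.10 ± 0.238). It had 8.27, 5.88 and 11.5 CPM in MEF, 8.23, 7.16 and 8.59 at Stage1, 13.5, 15.02 and 15.3 at Stage2 and 22.3, 17.2 and 19.1 in iPSC. Stage1 lay within the MEF range, and iPSC lay above Stage2 and Stage2 above both. Cbx2 rose 1.83-fold at Stage2 over Stage1 (log2 0.87 ± 0.234, adjusted p = 0.00694) and 2.44-fold in iPSC over Stage1 (1.29 ± 0.234, adjusted p = 0.000320). Cbx6 had 28.2, 35.8 and 32.4 CPM in MEF, 31.7, 24.0 and 24.8 at Stage1, 32.4, 36.2 and 28.5 at Stage2 and 24.0, 25.3 and 22.0 in iPSC. Values of all 12 libraries lay between 22.0 and 36.2 CPM, and the iPSC libraries lay below those of MEF and Stage2. Its exons share 563 bases with Npcd, which had 0 counts in all 12 libraries.

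Shares were taken among Cbx2, Cbx6, Cbx7 and Cbx8, per kilobase of exon. The most abundant of these 4 in MEF was Cbx6, at 48.0% of their summed level, with Cbx2 next at 31.3%. From Stage1 on it was Cbx7, which held 1.03% in MEF, 66.3% at Stage1, 63.8% at Stage2 and 60.0% in iPSC. Cbx8 held 19.7% in MEF, 0.765% at Stage1, 0.568% at Stage2 and 1.77% in iPSC. The share of Cbx2 was 14.04% at Stage1, 18.8% at Stage2 and 25.8% in iPSC. The iPSC libraries spanned 20.0 to 33.5% for Cbx2 and 49.2 to 67.0% for Cbx7, and the highest Stage2 share of Cbx2 was 19.2%. The summed level of the 4 genes was 6.39 CPM per kilobase in MEF, 13.4 at Stage1, 18.2 at Stage2 and 18.2 in iPSC. These shares are descriptions, without a test, and use exon lengths of GENCODE M21. Without the length correction, Cbx8 held 10.1% in MEF, 0.405% at Stage1, 0.310% at Stage2 and 1.03% in iPSC, and Cbx2 18.6% in MEF, 8.62% at Stage1, 11.9% at Stage2 and 17.3% in iPSC. Cbx6 then stood above Cbx2 in iPSC, at 20.7% against 12.4% with the correction, and Cbx7 at 61.0% in iPSC.

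**Figure D2:**
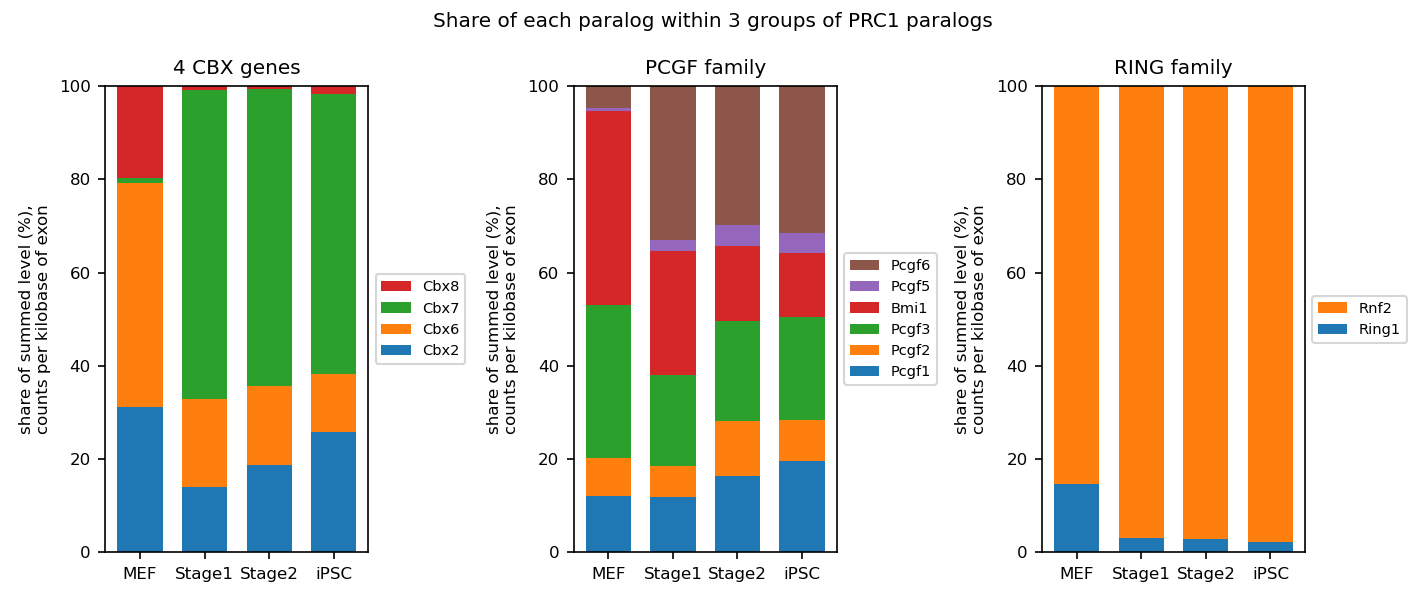
Mean share of each gene (vertical axis, percent, stacked to 100) of the summed counts per kilobase of exon among 4 CBX, 6 PCGF and 2 RING genes, by group in order of reprogramming. Cbx7 takes 66.3% of the 4 CBX genes at Stage1 and 1.03% in MEF, Bmi1 shrinks to 13.8% in iPSC, and Rnf2 exceeds 85% in all groups.

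Between Stage1 and Stage2, 1 of the 9 rose, Cbx2, and 2 fell, Bmi1 and Pcgf6. Of all genes tested, 40.4% were called, 20.6% higher and 19.8% lower, so 3 of 9 is near the background. Pcgf6 fell 1.37-fold at Stage2 against Stage1 (log2 -0.46 ± 0.154, adjusted p = 0.0253). It lost the call without Stage1 replicate 2 (adjusted p = 0.0916) or 3 (0.0663), without Stage2 replicate 1 (0.0874) or 2 (0.0726), without the filter (0.0616) and with library totals in place of TMM (log2 -0.25, adjusted p = 0.196). Library totals moved the median of all genes by 0.20 in this comparison and the share of calls that were higher to 70.6% against 51.1%, and called Cbx6, Pcgf2 and Rnf2 higher as well. Cbx7 missed the threshold at 75.7 ± 8.08 CPM at Stage2 against 57.4 ± 3.80 at Stage1 (adjusted p = 0.196), and passed it without MEF replicate 2 (adjusted p = 0.0482) and in a fit of Stage1 and Stage2 alone (0.00406).

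Between Stage2 and iPSC, 0 of the 9 were called by edgeR's quasi-likelihood test, where 18.1% of all genes were, 9.21% higher and 8.87% lower. At an unadjusted p below 0.05 there were 2, and DESeq2 called 1, Cbx6, lower. Cbx6 averaged 23.8 ± 1.67 CPM in iPSC and 32.4 ± 3.86 at Stage2 (log2 -0.44 ± 0.169, adjusted p = 0.0787), and it was called lower under RLE scaling (0.0445), library totals (0.0337), a fit of these groups alone (0.00690) and without any 1 of the 3 MEF libraries (0.0320 to 0.0486). Cbx8 averaged 1.14 ± 0.400 CPM in iPSC and 0.395 ± 0.273 at Stage2, without overlap (log2 1.43 ± 0.592, adjusted p = 0.103). Library totals turned the share of calls that were higher to 34.1%, against 50.9% with TMM.

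Set directly against Stage1, iPSC had 2 genes higher, Cbx2 and Rnf2, and 1 lower, Bmi1, where 39.4% of all genes were called, 21.3% higher and 18.1% lower. Rnf2 averaged 235.9 ± 17.1 CPM in iPSC and 172.8 ± 18.5 at Stage1 (log2 0.45 ± 0.142, adjusted p = 0.0183), a call lost without Stage1 replicate 1 (0.0830) or iPSC replicate 3 (0.0792). Cbx8 lay higher in iPSC than at Stage1 without overlap but missed the threshold (log2 1.51, adjusted p = 0.0562). It passed under RLE scaling (0.04999), library totals (0.0463), DESeq2 (0.0388), a fit of these groups alone (0.0260), and without MEF replicate 1 (0.0450) or Stage2 replicate 1 (0.0447). Pcgf6 missed it too (log2 -0.34, adjusted p = 0.0897) and was called lower in a fit of these groups alone (0.0210) and without MEF replicate 2 (0.0296) or 3 (0.0478). Bmi1 fell 2.33-fold (log2 -1.22 ± 0.153, adjusted p = 7.35e-06). Against MEF, Stage2 had 4 genes higher and 3 lower, where 81% of all genes were called, 44.6% higher and 36.4% lower. Against MEF, iPSC had 4 higher and 4 lower, where 80.8% were called, 44.9% higher and 35.8% lower. The 4 higher in both were Cbx2, Cbx7, Pcgf6 and Rnf2, and Cbx8, Bmi1 and Ring1 were lower in both. The last of the 4 in iPSC was Cbx6 (log2 -0.43 ± 0.169, adjusted p = 0.0254), whose call was lost without MEF replicate 2 (0.0570), iPSC replicate 1 (0.0597) or iPSC replicate 3 (0.101), without the filter (0.0505) and with library totals (-0.15, 0.424). These comparisons share their MEF or Stage1 libraries with those above.

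**Figure D3:**
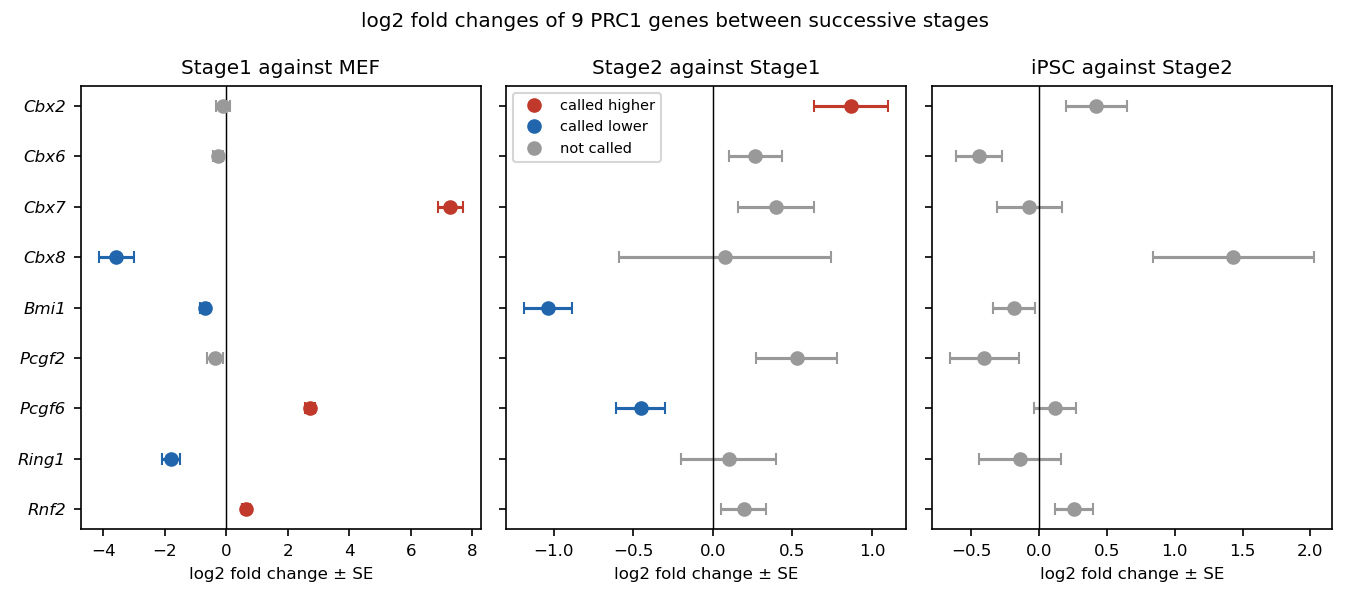
Fitted log2 fold change ± SE (horizontal axes, a different range in each panel) of the 9 genes between each stage and the one before it, with the later stage over the earlier. Points in colour passed an adjusted p of 0.05: 6 in the first panel, 3 in the second and 0 in the third.

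Of 30 further genes of PRC1 subunits and partners, 18 were higher and 10 lower at Stage1 against MEF and 2 were not called. Of all genes, 80.4% were called, 44.2% higher and 36.1% lower. The median log2 fold change of the 30 was 0.85, and that of all tested genes 0.27. The list includes factors shared with other complexes, such as Wdr5, Hdac1, Hdac2 and Skp1a, so its counts and median do not speak for PRC1 alone. Among subunits of the Pcgf6 complex, L3mbtl2 and Mga rose. L3mbtl2 averaged 106 ± 8.75 CPM at Stage1 and 5.93 ± 3.28 in MEF (log2 4.12, adjusted p = 1.18e-10), and Mga, its DNA-binding scaffold, 722 ± 45.7 at Stage1 and 145 ± 15.9 in MEF (2.32, adjusted p = 3.42e-11). E2f6 and Max of that complex fell instead (-1.09 and -0.88). The L3mbtl2 exons share 1023 bases with Chadl on the other strand. Phc1, a polyhomeotic subunit of canonical complexes, rose to 131 ± 7.03 CPM at Stage1, against 13.4 ± 5.37 in MEF, while its paralog Phc2 fell to 10.6 ± 2.75 at Stage1, against 105 ± 25.8 in MEF. Rybp, a subunit of variant complexes, rose (1.68) and Yaf2, its paralog, fell (-2.24). Kdm2b, which brings the Pcgf1 complex to CpG islands, rose (1.79), while Pcgf1 was not called (-0.07). The Kdm2b exons share 627 bases with Rnf34 on the other strand.

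At Stage2 against Stage1, 7 of the 30 rose, 4 fell and 19 were not called, near the 40.4% called among all genes. The 7 became 2 without Stage1 replicate 2 and 4 without Stage1 replicate 3 or Stage2 replicate 1. Phc1 rose further, at 272 ± 15.6 CPM at Stage2 and 131 ± 7.03 at Stage1 (log2 1.06, adjusted p = 0.000228), while Phc2 fell further (-1.07). In iPSC against Stage2, 2 rose, Yaf2 (0.75) and Tfdp1 (0.74), and 7 fell, with 21 not called, where 18.1% of all genes were called, 9.21% higher and 8.87% lower. The 2 became 1 without Stage2 replicate 2, Stage2 replicate 3 or iPSC replicate 2, as Yaf2 lost its call. The 7 became 2 without iPSC replicate 1, 3 without Stage2 replicate 1, and 4 without Stage2 replicate 3 or iPSC replicate 3. Bcor, the corepressor of the Pcgf1 complex, was among the 7, at 26.9 ± 2.85 CPM in iPSC and 70.1 ± 2.98 at Stage2 (-1.38, adjusted p = 0.000104). Kdm2b, Rybp, Mga, Phc3, Auts2 and Hdac1 were the others.

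**Figure D4:**
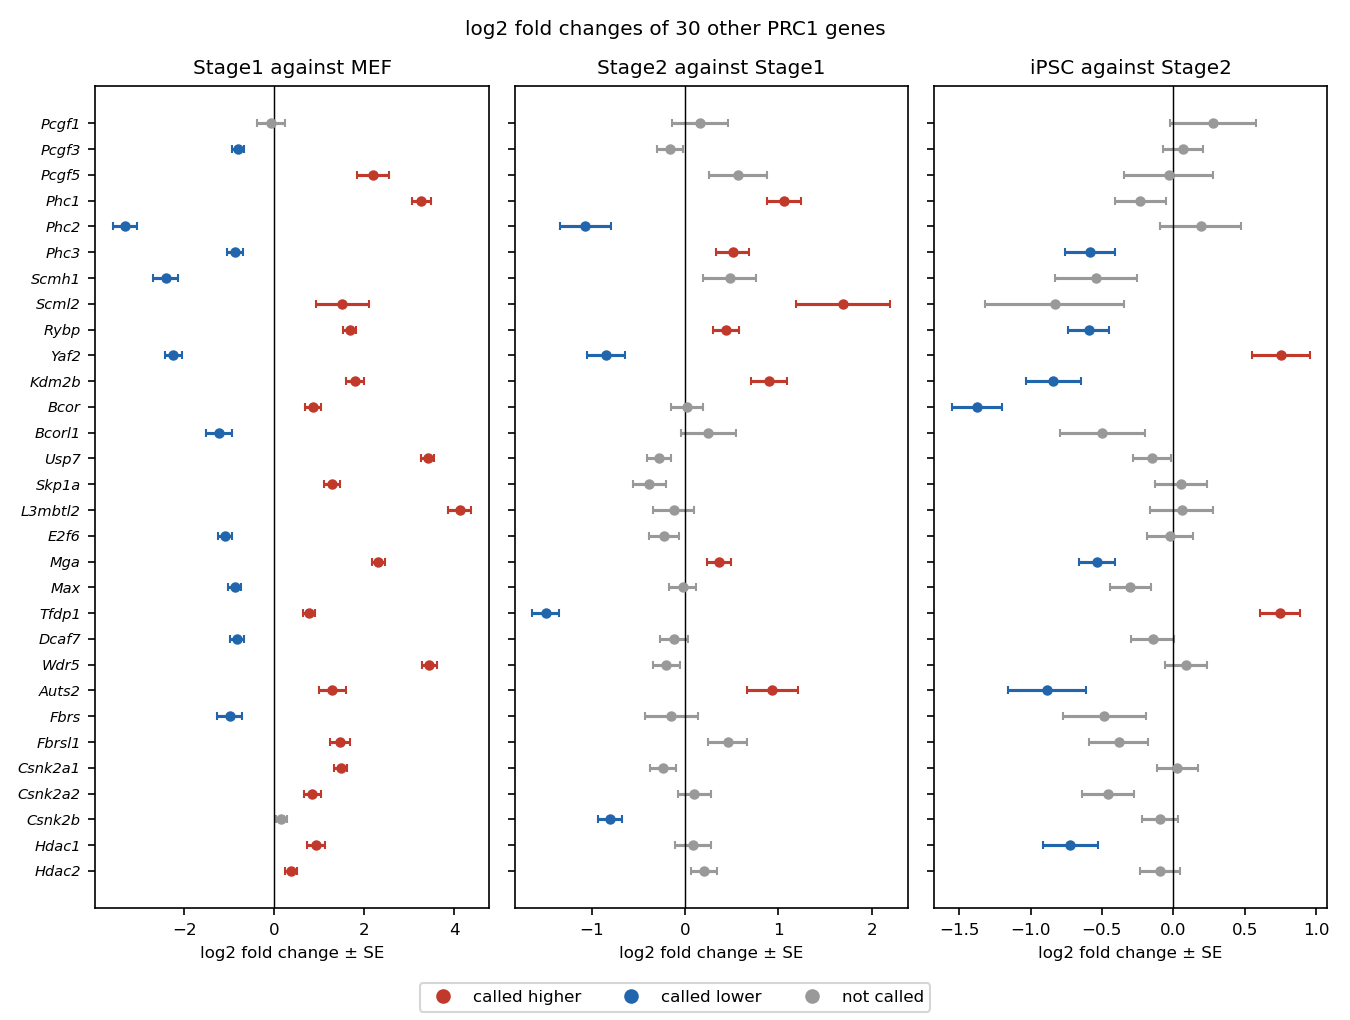
Fitted log2 fold change ± SE (horizontal axes, a different range in each panel) of 30 genes of PRC1 subunits and partners outside the 9, with colour for those called higher or lower. Phc1 and Phc2 point in opposite directions in the first and second panels, and most points of the third are grey.

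Of 7 genes of H2A deubiquitination, which removes the mark that PRC1 places, 5 were higher at Stage1 than in MEF, 1 was lower and 1 was not called, against 80.4% called among all genes. Mysm1 averaged 153 ± 9.32 CPM at Stage1 and 34.0 ± 1.21 in MEF (log2 2.18, adjusted p = 1.25e-10), and Asxl2, a partner of the deubiquitinase Bap1, rose too (2.11). Usp3 fell (-0.90). Stage2 against Stage1 gave 1 higher and 2 lower, near the 40.4% of all genes, with Asxl1 higher (0.62) and Bap1 (-0.74) and Usp16 (-0.68) lower. The count higher was 2 without any 1 of the MEF libraries or Stage1 replicate 1, 2 under RLE scaling and DESeq2, and 3 with library totals or a fit of these groups alone. In iPSC against Stage2, Asxl1 and Mysm1 fell (both -0.45) and 5 were not called, where 18.1% of all genes were called. Both lost the call without Stage1 replicate 3, Stage2 replicate 1 or 3, or iPSC replicate 1 or 2, and Asxl1 also without Stage2 replicate 2 or iPSC replicate 3. The count lower was 3 under RLE scaling, library totals and DESeq2, and 4 in a fit of these groups alone.

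Cdkn2a, the classical target of Bmi1 in fibroblasts, averaged 53.1 CPM in MEF, 19.4 at Stage1, 9.78 at Stage2 and 2.10 in iPSC, and fell at each step (log2 -1.46, -0.98 and -2.22). The call at Stage2 against Stage1 (adjusted p = 0.00709) was lost without Stage1 replicate 3 (0.0540). The counts join the transcripts of both proteins of this locus, Ink4a and Arf. Cdkn2b, beside it, was at 1.48 ± 0.326 CPM at Stage1 against 110 ± 2.43 in MEF (-6.22, adjusted p = 7.01e-14).

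Of 22 developmental regulators known as Polycomb targets, 11 passed the filter, so the counts speak only for those with reads. Some passed only through groups where they were high, among them Msx2 through MEF and Foxa2 through Stage2. The direction of such genes is not independent of the filter. Pax6, T and Sox17 had 1, 2 and 0 reads over the MEF libraries, and Sox17 had 5 at Stage1. Msx2 had 213 reads in MEF and 11 at Stage1. At Stage1 against MEF, 4 of the 11 were higher and 3 lower, against 80.4% called among all genes. The 4 became 2 without MEF replicate 1, MEF replicate 2, Stage1 replicate 1 or Stage1 replicate 3, and 1 in a fit of these groups alone, while 7 were higher when no filter was used. Msx2 averaged 0.309 ± 0.205 CPM at Stage1 and 5.27 ± 1.52 in MEF, given as levels only. Pax6 and T lay at 1.51 ± 0.262 and 2.29 ± 1.53 CPM at Stage1, and at 0.0223 ± 0.0386 and 0.0446 ± 0.0772 CPM in MEF. Stage2 against Stage1 gave 3 higher and 8 not called, where 20.6% of all genes were higher. The 3 became 2 without Stage1 replicate 1 or 2 or Stage2 replicate 1 or 3. They became 4 with library totals, DESeq2, the replicate block, and without MEF replicate 2 or 3. Gata6 averaged 2.08 ± 0.356 CPM at Stage2 and 0.778 ± 0.388 at Stage1 (log2 1.44, adjusted p = 0.0137), a call lost without Stage1 replicate 1 (0.0745) or Stage2 replicate 3 (0.0539). Foxa2 averaged 2.02 ± 0.458 CPM at Stage2 and 0.107 ± 0.130 at Stage1. Sox17, also called higher, averaged 0.914 ± 0.302 CPM at Stage2 and 0.125 ± 0.110 at Stage1. Its call was lost without Stage1 replicate 2 or Stage2 replicate 1. In iPSC against Stage2, 0 of the 11 were called by edgeR's test, where 18.1% of all genes were. DESeq2 called 0 of them as well, and 3 had an unadjusted p below 0.05 by edgeR's test.

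For each of the 9, the gene outside the 9 with the most similar log2 CPM over the 12 libraries, among 11166 candidates, is given as a description. Pcgf6 was closest to Rpp40 (r = 0.998), Cbx7 to Zfp866 (0.998), Bmi1 to Stx17 (0.990), Ring1 to Nsg1 (0.987), Cbx2 to Apod (0.984), Rnf2 to Ube2t (0.971), Cbx8 to Fbxl8 (0.962), Cbx6 to Kdm6b (0.896) and Pcgf2 to Tada3 (0.833). The 12 libraries share 4 groups, and the contrast with MEF carries much of r for some pairs: over the 9 libraries without MEF it was 0.608 for Cbx7 and Zfp866, and 0.974 for Bmi1 and Stx17.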

How the data were processed

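The deposited files hold raw counts of reads per gene symbol, with no normalization; the authors made them with TopHat2 2.0.9, Bowtie2 2.2.6, SAMtools 0.1.19 and HTSeq 0.5.4p3 on mm10, per the submitters' processing notes, which also name DESeq2 1.12.4. Annotation version and strandedness are not given in the sources used here. HTSeq's summary lines, reported above as the shares outside genes and ambiguous between genes, stayed out of library sizes and tests. Both shares are of the reads in genes, outside genes and ambiguous together, so other reads are left out. The 12 libraries were fitted together by edgeR 4.0.16 (R 4.3.3; limma 3.58.1; statmod 1.5.0), with filterByExpr by group, TMM scaling, glmQLFit in robust mode with 1 coefficient per group, glmQLFTest and Benjamini-Hochberg adjustment over 14770 genes. The common biological coefficient of variation was 0.190. Mean ± SD refers to TMM-scaled CPM. SE was the absolute log2 fold change over the root of the F statistic. Chi-square tests of counts found no repeated library, at 4.40 to 148 per degree of freedom. The procedure was tested on simulated data.

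Named were all 9 members, any gene of the lists of other PRC1, H2A deubiquitinase and Ink4/Arf genes, up to 4 developmental targets per comparison and the closest gene to each member. The members and lists were chosen with earlier results of these data known. Some genes of the lists and families are not reported here, and counts and shares leave them out. Overlapping genes were named for their annotation, and Fn1 and the macrophage markers for the makeup of the marker sums. Exon lengths and spans are of GENCODE M21. Other settings were RLE scaling, library totals, no filter, 1 CPM in 3 libraries, DESeq2 1.42.0, only the groups compared, a replicate block and leaving out each library, and for shares of a family no length correction. Same-numbered libraries of different groups correlated at -0.0675 to 0.197 in their deviations from group means, 3 of 18 above 0.1. Differently numbered libraries correlated at -0.139 to 0.0829, so the pairs above 0.1 all shared a number. Whether the numbers pair samples is not stated and was not settled by these values. The main fit took no pairing, and the replicate block was run as another setting.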

Additional observations from a re-analysis of the deposited data

Results flagged for a closer look

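Reads outside genes, which no comparison used, made up 42.8% at Stage1, 49.9% at Stage2 and 38.8% in iPSC, against 9.21% in MEF. The gap exceeded the spread between libraries, with 35.0% as the lowest share among the 9 later libraries and 9.42% as the highest in MEF. Its part in the levels of the PRC1 genes was not tested.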

How the results depend on the processing

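Stage1 against MEF kept 3 PRC1 genes higher and 3 lower under all settings run. For Stage2 against Stage1, the count higher was 1, 4 with library totals, 2 in a fit of only the groups compared and 1 to 2 leaving out each library. The count lower was 2, and 1 with library totals, without the filter and as the lowest leaving out each library (1 to 2). For iPSC against Stage2, the count lower was 0, 1 under RLE scaling, library totals, DESeq2 and only the groups compared, and 0 to 1 leaving out each library. All genes called there were 2670, 4954 with only the groups compared and 1233 to 3781 leaving out each library, lowest without iPSC replicate 1. For iPSC against Stage1, the count higher was 2, 3 under RLE scaling, library totals, DESeq2 and only the groups compared, with Cbx8 added, and 1 to 3 leaving out each library, and the count lower 2 with only the groups compared and 1 to 2 leaving out each library. A fit with the replicate block kept the calls of all 54 member values, with 3 higher and 3 lower at Stage1 against MEF. Only values that were not called changed sign. Library totals gave 0.072 for Cbx2 (Stage1 against MEF), 0.064 for Ring1 (iPSC against Stage1) and 0.034 for Pcgf2 (iPSC against MEF), and only the groups compared -0.029 for Cbx6 (Stage2 against MEF). Leaving out each library gave -0.33 to 0.21 for Cbx2 (Stage1 against MEF), -0.39 to 0.44 for Cbx8 and -0.32 to 0.32 for Ring1 (Stage2 against Stage1), -0.24 to 0.16 for Cbx7 and -0.36 to 0.28 for Ring1 (iPSC against Stage2), -0.0024 to 0.22 for Pcgf2 and -0.15 to 0.072 for Ring1 (iPSC against Stage1), -0.089 to 0.12 for Cbx6 and -0.12 to 0.39 for Pcgf2 (Stage2 against MEF). The cause was not tested. Library totals moved the median of all genes by 0.18, 0.20, -0.10, 0.10, 0.38 and 0.28 log2 for Stage1 against MEF, Stage2 against Stage1, iPSC against Stage2, iPSC against Stage1, Stage2 against MEF and iPSC against MEF. At 1 to 9 reads per library, Cbx8 at Stage1 and Stage2 is limited by depth.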
